A study of Mus musculus with 26 samples.

Results

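Linker histone transcripts were followed through 26 RNA-seq libraries made from mouse oocytes at MII and from 1-cell embryos. The members are 8 of the 55401 genes in the count table, taken as the rows whose Ensembl identifiers carry the symbols H1foo, H1f0, H1fx, Hist1h1a, Hist1h1b, Hist1h1c, Hist1h1d and Hist1h1e in GENCODE vM21; all 8 were found. The libraries form 5 groups. The first numbering series holds 7 libraries of embryos cultured with 10058-F4 and 7 of their control embryos. 10058-F4 is a small thioxo-thiazolidinone carrying an ethylphenyl group that keeps the transcription factor c-Myc from pairing with Max; it was present for 10 h from 2 h after sperm met oocytes, and the sources used here give no dose. The second series holds 4 libraries of embryos cultured with alpha-amanitin, 4 of their control embryos and 4 of MII oocytes, which are eggs arrested at the second meiotic metaphase. Alpha-amanitin blocks RNA polymerase II and was used at 100 µg/ml for 10 h from 1 h after mixing. The labels give every embryo an age of 10 h and every oocyte 0 h, although start and duration of each agent add up to more than 10 h. Oocytes came from superovulated B6D2F1 hybrid females aged 8 weeks and all embryos from in vitro fertilisation with B6D2F1 sperm, so no group carries an engineered allele, and embryos of the alpha-amanitin series were collected with both pronuclei. The labels give neither the number of oocytes or embryos behind a library nor a vehicle for the controls; n counts libraries, and p-values measure the spread between libraries, which may in part be technical.

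Linker histones bind the nucleosome where DNA enters and leaves it and help to compact the chromatin fibre. H1foo (also H1oo or H1.8) is the linker histone of the oocyte and early embryo. Hist1h1a to Hist1h1e encode the main somatic variants, whose genes lie in a histone cluster and are mostly transcribed during S phase, whereas H1f0 and H1fx are single genes outside it and are expressed independently of replication. Replication-dependent histone mRNAs end in a conserved stem-loop in place of a poly(A) tail, and the stem-loop is bound by the protein encoded by Slbp. After fertilisation of the mouse oocyte the H1foo protein is replaced by somatic variants while the embryo begins to transcribe its own genome.

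Library totals were 20566278 to 27266040 counts in the 10058-F4 series and 5371602 to 31540627 counts in the alpha-amanitin series. The lowest and the highest total belonged to alpha-amanitin replicates 3 and 1, and these libraries stood apart: genes without a single count in any oocyte library took 11651 and 12200 CPM (counts scaled to a common library total) in them, against 975 to 5033 CPM in the other embryo libraries of that series. In the 10058-F4 series such genes took 537 to 690 CPM in treated libraries and 782 to 1190 CPM in controls, without overlap. The part of this difference in the results below was not tested. Of the 4 markers of fibroblasts and blood cells, the summed level was 123 CPM in alpha-amanitin replicate 3, 10.7 CPM in replicate 1, 1.61 CPM in replicate 2 and 0 in replicate 4, with at most 0.887 CPM in any other library. The 8 oocyte markers were present in every group and summed to 3231 to 7582 CPM per library. Summed markers of sperm and spermatids stayed at or under 22.9 CPM, with Tnp1, Tnp2 and Smcp at 0 in every group, and those of cumulus and granulosa cells at or under 13.8 CPM. The labels list no spike-in RNA, so CPM is a share of a library, and a change in a transcript's amount per embryo cannot be told apart from a change in the rest of the RNA. Levels below are CPM with totals scaled by TMM within each series; a log2 fold change, its SE and its adjusted p come from the edgeR quasi-likelihood test with Benjamini-Hochberg adjustment over all genes tested, and "called" means an adjusted p below 0.05.

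The annotated genes differ in place and build. In GRCm38, H1foo lies at chr6:115944938-115950236 on the + strand and has 5 annotated transcripts with 1201 bases of merged exon. Hist1h1a lies at chr13:23763666-23764406 on the + strand, a single exon of 741 bases. The other cluster members lie on the same chromosome, Hist1h1b at chr13:21779883-21780625, Hist1h1c at chr13:23738808-23740367, Hist1h1d at chr13:23553262-23560686 and Hist1h1e at chr13:23620629-23622558. H1f0 lies at chr15:79028450-79030504 and H1fx at chr6:87980421-87981637. The coding sequence of H1foo was identical to that of any other member in 39.3% to 44.5% of aligned positions, while the 5 Hist1h1 genes were identical to one another in 68.5% to 84.0%. No 50-base stretch of the H1foo or Hist1h1a transcript occurs in another annotated gene on the same strand. Such shared stretches made up 8.54% of the Hist1h1c transcript, 2.25% of Hist1h1d and 32% of Hist1h1e, whose annotated model also overlaps Hist1h2be by 450 bases, so counts of these genes could be split or exchanged by the counting. H1f0 and H1fx overlap antisense genes by 163 and 213 bases, and no source used here states the strand setting of the counting.

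The 3′ end that marks replication-dependent histone mRNAs is shown first, because the members differ in it. The first 100 bases after the stop codon were searched for a perfect stem of 6 base pairs that opens with GG, around a loop of 4 bases that opens with TT. It was found in 3 members, with stem bases in capitals, and it was the same sequence in each:
Hist1h1c: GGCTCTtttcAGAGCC
Hist1h1d: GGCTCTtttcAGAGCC
Hist1h1e: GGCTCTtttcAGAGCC
Its first base lies 25, 32 and 41 bases after the stop codon in Hist1h1c, Hist1h1d and Hist1h1e. Such a stem-loop occurred in 33 of 19125 genes with a full window, or 0.173%. None was found in the windows of H1foo, H1f0 or H1fx. The H1foo model has 153 bases after its stop codon, with 1 AATAAA. The same motif occurred 2, 1, 1 and 7 times after the stop codon of H1f0, H1fx, Hist1h1c and Hist1h1d, and 0 times in Hist1h1e. It thus does not part H1foo from all members with a stem-loop. No stem-loop was found in Hist1h1a either, whose model ends 48 bases after the stop codon, so that less was searched. The Hist1h1b model ends at its stop codon and left nothing to search.

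The 250 bases before the RefSeq transcription start (GRCm38.p6) are given for H1foo and Hist1h1a, the members whose levels changed, and for Hist1h1e as a stem-loop member that did not pass a test. Both strands were searched for CACGTG (the E-box bound by c-Myc with Max), AAACACA (a box upstream of histone H1 genes), TATAAA and CCAAT, and matches are in capitals, as ATTGG where CCAAT lies on the other strand. The regions are chr6:115944681-115944930 on the + strand, chr13:23763418-23763667 on the + strand and chr13:23622559-23622808 on the - strand:
H1foo: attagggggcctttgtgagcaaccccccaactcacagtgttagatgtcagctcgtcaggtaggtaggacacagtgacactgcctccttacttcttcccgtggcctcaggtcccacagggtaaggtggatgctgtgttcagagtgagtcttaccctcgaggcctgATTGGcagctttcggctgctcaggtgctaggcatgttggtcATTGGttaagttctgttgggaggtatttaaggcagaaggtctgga
Hist1h1a: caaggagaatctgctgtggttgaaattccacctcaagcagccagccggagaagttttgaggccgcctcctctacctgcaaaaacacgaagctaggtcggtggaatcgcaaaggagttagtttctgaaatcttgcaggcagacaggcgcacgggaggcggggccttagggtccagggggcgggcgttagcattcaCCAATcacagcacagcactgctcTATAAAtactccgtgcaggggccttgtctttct
Hist1h1e: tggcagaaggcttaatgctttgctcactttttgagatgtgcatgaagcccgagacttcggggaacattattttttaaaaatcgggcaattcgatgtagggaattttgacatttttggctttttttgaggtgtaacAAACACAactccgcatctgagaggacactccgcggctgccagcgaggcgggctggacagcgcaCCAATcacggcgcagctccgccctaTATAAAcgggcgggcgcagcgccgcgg
Windows that also take in the first 50 bases after the start were found for all 8 members through RefSeq synonyms, and CACGTG occurred in none of them, against 7.15% of 32851 promoters of the same length. AAACACA, found in 7.18% of all promoters, occurred in Hist1h1b, Hist1h1c, Hist1h1d and Hist1h1e at 112 to 122 bases before the start and in none of H1foo, Hist1h1a, H1f0 and H1fx. TATAAA, found in 13.6%, occurred in Hist1h1a, Hist1h1b, Hist1h1d and Hist1h1e at 26 to 33 bases before the start, and further upstream on the other strand in Hist1h1d. No matches overlapped. CCAAT, found in 37.4%, occurred in all 5 Hist1h1 members and, on the other strand, in H1foo at positions -86 and -45. A match is a run of letters and not a measured binding site.

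H1foo and Hist1h1a were the most abundant linker histone transcripts in every group, whether scaled per kilobase of exon or of coding sequence. Per kilobase of annotated exon, H1foo averaged 1461 ± 172 CPM in 10058-F4 embryos, 462 ± 166 in their controls, 275 ± 82.2 in alpha-amanitin embryos, 294 ± 46.5 in theirs and 1075 ± 118 in oocytes (SD, n = 7, 7, 4, 4 and 4). Hist1h1a on the same scale averaged 1052 ± 109, 1008 ± 221, 1035 ± 170, 1108 ± 115 and 515 ± 35.7 CPM in the same groups. The other 6 members averaged at most 50.5 CPM per kilobase of exon in any group, and at most 178 CPM per kilobase of coding sequence, the level of H1f0 in 10058-F4 embryos. By mean level, the order for H1foo was 10058-F4 embryos, oocytes, controls of 10058-F4, controls of alpha-amanitin and alpha-amanitin embryos; the ranges of the last 3 overlapped with their neighbour and the first 3 were separate. Hist1h1a was lowest in oocytes, whose range met no other group's, and its 4 embryo groups overlapped one another. The series were prepared under separate numbers, and levels set across them carry no test.

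**Figure D1:**
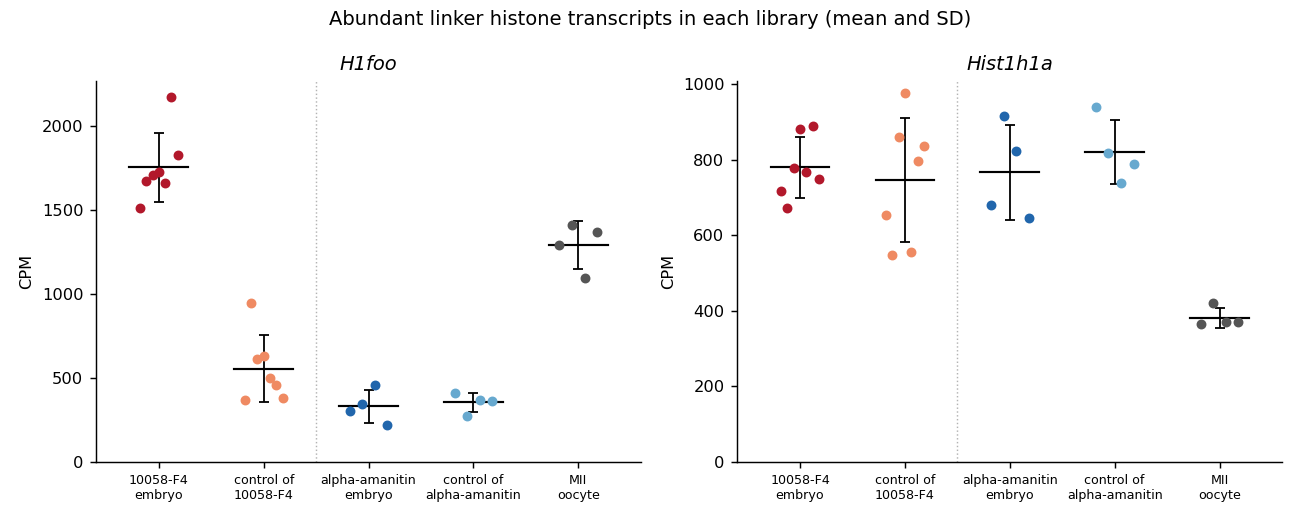
CPM of H1foo (left) and Hist1h1a (right) in each library (points) with the mean and SD of each group (lines and bars); a dotted line parts the 10058-F4 series from the alpha-amanitin series. All 7 10058-F4 libraries lie at 1512 CPM or above for H1foo and all 7 controls at 945 CPM or below, and Hist1h1a is lowest in the 4 oocyte libraries.

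The first comparison asks which transcripts differ between control 1-cell embryos and MII oocytes, which are separate libraries of the alpha-amanitin series. H1foo was lower in control embryos. It measured 407, 275, 368 and 362 CPM in the 4 control embryo libraries of the alpha-amanitin series, against 1289, 1413, 1093 and 1369 CPM in the 4 oocyte libraries. Every oocyte library was above every embryo library. The means of 353 ± 55.8 and 1291 ± 142 CPM (SD, n = 4 each) made H1foo 3.66-fold higher in oocytes, and the log2 fold change of embryo over oocyte was -1.87 (SE 0.19, adjusted p = 8.9e-06). Hist1h1a, the most abundant somatic variant in oocytes, went the other way. It measured 940, 817, 739 and 788 CPM in control embryos, against 364, 421, 371 and 370 CPM in oocytes, again without overlap. The embryo mean was 2.15-fold that of oocytes, with a log2 fold change of 1.11 (SE 0.14, adjusted p = 1.1e-04, edgeR). In this comparison 1.11% of 13133 tested genes were called higher and 1.78% lower, and of the 7 linker histones that passed the filter on low counts 1 was called in each direction. Of the 8 oocyte markers 0 were called higher and 3 lower. Gdf9 averaged 328 ± 92.8 CPM in control embryos and 2122 ± 169 CPM in oocytes. Zp2 averaged 107 ± 22 and 334 ± 20 CPM and Zp3 36.6 ± 19.2 and 155 ± 15.8 CPM in the same order, and both encode zona pellucida proteins. Mos and Oosp1, at log2 fold changes of -3.78 and -0.41, were not called. Nor were Bmp15, Nlrp5 and Ooep, at -0.04, -0.19 and 0.07. The part of the markers in the H1foo result was not tested.

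H1f0, the replication-independent variant, measured 93.6, 97.8, 130 and 82.9 CPM in control embryos, against 40.7, 56.8, 49.1 and 59.1 CPM in oocytes. The groups did not overlap, but with a log2 fold change of 0.97 (SE 0.31) the adjusted p was 0.109. It was 0.00546 with DESeq2 and 0.0396 with limma voom. With edgeR it was 0.0293 in a fit of the 2 groups alone and 0.00511 in a fit of all 5 groups. The call thus depends on the tool and on the libraries fitted together. H1fx measured 32.7 to 64.8 CPM in control embryos and 6.06 to 55.0 CPM in oocytes and was not called (log2 fold change 0.72, SE 0.52). Hist1h1c, Hist1h1d and Hist1h1e were not called either, with standard errors of 1.01 to 1.83 on the log2 scale. Over the 7 tested members the median log2 fold change was 0.72, beside -0.03 over all genes tested.

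Embryos cultured with alpha-amanitin were then compared with their controls. How far transcription was blocked in these libraries was not tested, so the values do not settle whether RNA polymerase II was needed for the differences above. H1foo measured 305, 342, 455 and 217 CPM in alpha-amanitin embryos, against 407, 275, 368 and 362 CPM in their controls. The control values lay inside the treated range, and the log2 fold change was -0.10 (SE 0.19, adjusted p = 0.998). Hist1h1a measured 681, 916, 824 and 645 CPM in alpha-amanitin embryos, against 940, 817, 739 and 788 CPM in controls, with a log2 fold change of -0.10 (SE 0.14, adjusted p = 0.998). Without alpha-amanitin replicates 1 and 3 the log2 fold change of H1foo was -0.345 (adjusted p = 0.678). A p that misses the threshold does not show that the groups are alike. Of the 7 tested members 0 were called by edgeR, 0 at an unadjusted p below 0.05, and 0 by DESeq2 or limma voom after adjustment. Here 0.0228% of 13133 genes were called higher and 0.00761% lower, which is 3 and 1 genes, so few genes of any kind passed this test. An unadjusted p below 0.05 was reached by 986 of the 13133 with edgeR. DESeq2 called 435 of 14894 genes and limma voom 10 of 13133. The median log2 fold change was -0.30 over the members and -0.01 over all genes. H1f0 had the smallest p among the members, at 45.2, 95.7, 69.8 and 52.1 CPM in alpha-amanitin embryos, against 93.6, 97.8, 130 and 82.9 CPM in controls. Of the 4 treated libraries, 3 lay below all controls and 1 within them (log2 fold change -0.62, SE 0.31, adjusted p = 0.70). Of the 8 oocyte markers edgeR called 0, and DESeq2 called 1 higher, beside 323 of 14894 genes. Gdf9 averaged 518 ± 103 CPM in alpha-amanitin embryos and 328 ± 92.8 CPM in controls (log2 fold change 0.66, SE 0.18, edgeR adjusted p = 0.524). Bmp15, Zp2, Zp3, Ooep and Nlrp5 were at 0.25, 0.12, 0.38, 0.17 and 0.46, and Mos and Oosp1 at -1.35 and -0.34.

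Set against oocytes, alpha-amanitin embryos showed the same pair of calls as control embryos; both comparisons share the oocyte libraries. H1foo averaged 330 ± 98.7 CPM in alpha-amanitin embryos and 1291 ± 142 CPM in oocytes (SD, n = 4 each), 3.91-fold higher in oocytes, with a log2 fold change of -1.97 (SE 0.19, adjusted p = 4.9e-06). Hist1h1a averaged 767 ± 126 CPM in alpha-amanitin embryos and 381 ± 26.5 CPM in oocytes, a ratio of 2.01 and a log2 fold change of 1.01 (SE 0.14, adjusted p = 3.6e-04). No library of either group crossed into the other for these genes. Without alpha-amanitin replicates 1 and 3, which stood apart, the log2 fold change was -2.21 for H1foo and 1.03 for Hist1h1a, and both were still called. H1f0 averaged 65.7 ± 22.5 CPM in alpha-amanitin embryos and 51.4 ± 8.33 CPM in oocytes and was not called (log2 fold change 0.35, SE 0.31). In this comparison 0.442% of genes were called higher and 1.27% lower, and the median log2 fold change was 0.35 over the members and -0.04 over all genes. Of the 8 oocyte markers 0 were called higher and 4 lower. The 4 had log2 fold changes of -2.04 for Gdf9, -1.52 for Zp2, -1.71 for Zp3 and -5.13 for Mos. Mos had 0 counts in 2 of the 4 alpha-amanitin libraries. Oosp1, at -0.75, was not called. Bmp15, Ooep and Nlrp5, at 0.21, 0.24 and 0.27, had higher means in alpha-amanitin embryos and were not called. With limma voom 2 of the 8 were called higher and 5 lower, beside 141 and 401 of 13133 genes. Col1a2, a collagen gene of fibroblasts, was called higher (adjusted p = 0.0394); it ranged from 0 to 113 CPM in alpha-amanitin embryos and was at 0 in all 4 oocyte libraries. The part of these markers in the H1foo and Hist1h1a results was not tested.

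**Figure D2:**
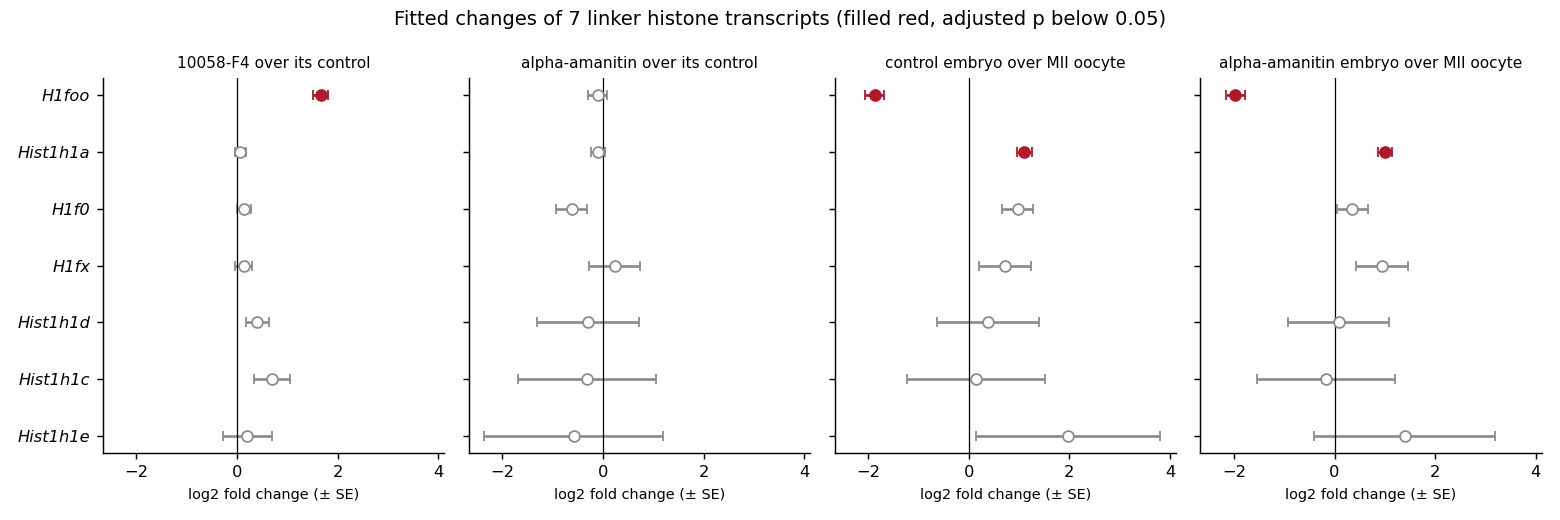
Fitted log2 fold change with its SE for 7 members in 4 comparisons, each panel naming the group on top first; filled red points were called. H1foo is called in 3 panels, Hist1h1a in the 2 against oocytes, and no member in the panel of alpha-amanitin over its control.

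The H1foo level was higher in embryos cultured with 10058-F4 than in their controls. The 7 treated libraries had a lowest, median and highest H1foo level of 1512, 1707 and 2170 CPM, against 367, 496 and 945 CPM in the 7 controls. The groups did not overlap: the lowest treated library was above the highest control, which was replicate 2. The means were 1754 ± 206 CPM in treated embryos and 555 ± 200 CPM in controls (SD, n = 7 each), a ratio of 3.16, and the log2 fold change was 1.66 (SE 0.15, adjusted p = 4.7e-08). The coefficient of variation was 11.8% in treated embryos and 36.0% in controls. In this comparison 6.82% of 13003 genes were called higher and 4.08% lower. Of the 7 tested linker histones, H1foo alone was called; the median log2 fold change over them was 0.21, beside 0.00 over all genes. Of the 8 oocyte markers 4 were called higher and 0 lower. Gdf9, an oocyte growth factor, averaged 1957 ± 305 CPM in treated embryos and 412 ± 112 CPM in controls (log2 fold change 2.25, SE 0.14), and Mos, a kinase of meiotic arrest, 56.0 ± 22.4 and 13.5 ± 3.44 CPM (log2 fold change 2.05, SE 0.24). Zp2 and Oosp1, the other called markers, had log2 fold changes of 0.45 and 0.28. Zp3 was not called at 0.27, and Bmp15, Ooep and Nlrp5, at -0.17, -0.19 and -0.11, had lower means in treated embryos and were not called, so the markers did not all share the direction of H1foo. The sum of the 8 ranged from 4631 to 6034 CPM in treated libraries and from 3231 to 4792 CPM in controls; their part in the H1foo result was not tested. Control replicate 2, with the most H1foo of the controls, also had the most Gdf9 among them, 601 CPM. Of the other markers, values for this library are given only for Mos and for the sum of the 8, which includes Gdf9. Its Mos level of 12 CPM lay inside the control range of 9.2 to 19.8 CPM. Its marker sum of 4080 CPM was below those of control replicates 1 and 8, at 4100 and 4792 CPM. Control replicate 2 also had the lowest Hist1h1a level of the controls, 547 CPM, and their lowest H1f0 level. Genes without a count in any oocyte library took 782 CPM in it, the least among the controls. Its H1fx, Hist1h1d and Hist1h1e levels lay inside the range of the other controls. The part of these differences in its H1foo level was not tested.

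The somatic variants did not follow H1foo past the test. Hist1h1a had a lowest, median and highest level of 672, 769 and 890 CPM in 10058-F4 embryos, against 547, 797 and 978 CPM in controls, so the treated range lay inside that of the controls (log2 fold change 0.06, SE 0.11, adjusted p = 0.830). H1f0 averaged 104 ± 17.7 CPM in treated embryos and 94.1 ± 20.5 CPM in controls (log2 fold change 0.14, SE 0.14). H1fx averaged 48.1 ± 10.4 and 44.0 ± 10.5 CPM in the same order (log2 fold change 0.13, SE 0.17). Hist1h1c averaged 10.9 ± 4.09 CPM in treated embryos and 6.74 ± 4.39 CPM in controls, with a log2 fold change of 0.70 (SE 0.36, adjusted p = 0.272). Hist1h1d averaged 33.5 ± 9.86 and 25.4 ± 9.07 CPM in the same order, with a log2 fold change of 0.40 (SE 0.23, adjusted p = 0.338).

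The effects of 10058-F4 and alpha-amanitin on H1foo differed. In 1 fit of the 22 embryo libraries, the log2 fold change of 10058-F4 embryos over their controls exceeded that of alpha-amanitin embryos over theirs by 1.77 (SE 0.27, adjusted p = 4.0e-04, edgeR). The agents were added at 2 h and at 1 h after mixing and in separate series, so agent, timing and series cannot be told apart in this difference. Among 15790 genes, 0.678% had a difference called higher and 0.367% lower, and H1foo was 1 of the 8 members, the only one called. For Hist1h1a the difference was 0.17 (SE 0.19, adjusted p = 0.763) and for H1f0 it was 0.77 (SE 0.29, adjusted p = 0.167). Of the 8 oocyte markers 1 had a difference called higher and 0 lower, and the called marker was Gdf9, at 1.60 (SE 0.25). Zp2, Mos and Oosp1, at 0.33, 3.42 and 0.62, were not called. Bmp15, Zp3, Ooep and Nlrp5, at -0.42, -0.10, -0.35 and -0.56, went the other way and were not called. With limma voom 1 of the 8 was called higher and 1 lower, beside 110 and 57 of 15790 genes.

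Hist1h1b, Hist1h1c, Hist1h1d and Hist1h1e, the cluster genes that share the AAACACA box, were scarce and uneven between libraries. Hist1h1b had 0 counts in all alpha-amanitin embryo libraries, which allows a level of up to 0.0388 CPM over the group, and in all oocyte libraries, which allows up to 0.0324 CPM. Among control embryos of the alpha-amanitin series it had 265 counts in replicate 4, 13 in replicate 2, 1 in replicate 3 and 0 in replicate 1. It had 29 counts in 2 of 7 10058-F4 libraries and 60 counts in 4 of 7 controls, and it did not pass the filter on low counts in the 4 comparisons of a pair of groups.

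Hist1h1d measured 35.1, 32.2, 0 and 3.31 CPM in alpha-amanitin embryos, against 20.2, 13.8, 32.6 and 20.4 CPM in their controls. Treated replicates 1 and 2 lay near the highest control and replicates 3 and 4 below the lowest. Hist1h1e measured 11.3, 10.2, 0 and 0 CPM in the same treated libraries, against 1.49, 0.951, 21.4 and 8.48 CPM in controls, and 2.06, 2.06, 0.618 and 3.47 CPM in oocytes. The spread within groups was wide for both, and neither was called in any comparison. In the 10058-F4 series Hist1h1e ranged from 2.49 to 10.3 CPM in 6 treated libraries and reached 40.4 CPM in replicate 8, against 2.55 to 19.8 CPM in controls. Its log2 fold change of 0.21 (SE 0.48) was -0.56 without that library. Hist1h1c ranged from 2.26 to 15.8 CPM in alpha-amanitin embryos, from 4.62 to 17.8 CPM in their controls and from 0 to 21.9 CPM in oocytes.

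**Figure D3:**
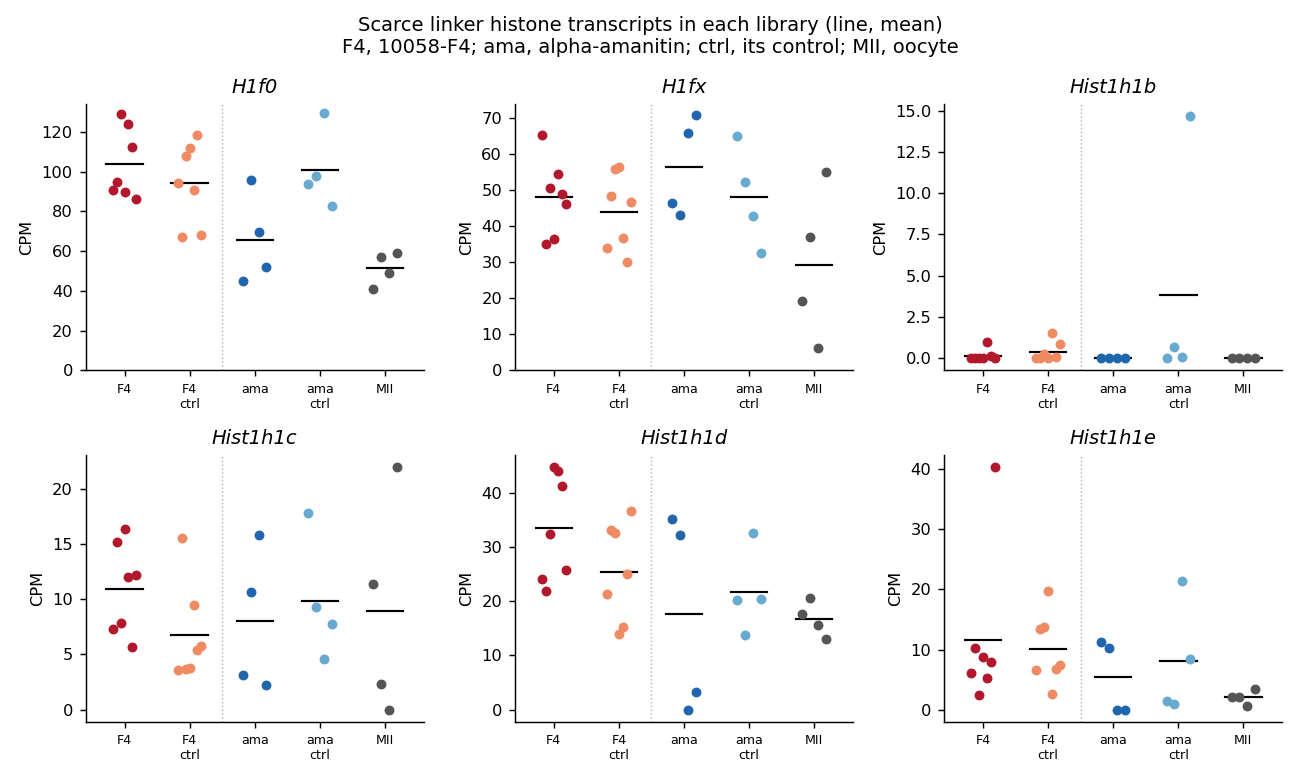
CPM of the 6 less abundant members in each library (points), with the group mean as a line; F4 is 10058-F4, ama alpha-amanitin, ctrl the control of each and MII the oocyte. Hist1h1b lies at 0 in all alpha-amanitin and oocyte libraries, and Hist1h1e stands at 40.4 CPM in 1 10058-F4 library.

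The make-up of the linker histone RNA was described by scaling each member by its exon length and dividing by the sum of the 8. H1foo had a median share of 54.9% in 10058-F4 embryos (52.8% to 58.2%), 26.8% in their controls (20.7% to 48.6%), 19.0% in alpha-amanitin embryos (15.9% to 23.8%), 20.1% in theirs (16.0% to 21.6%) and 65.5% in oocytes (63.1% to 66.6%). Hist1h1a held a median of 40.6%, 67.4%, 75.1%, 73.2% and 31.0% in the same order of groups. H1foo was thus the larger of the pair in every oocyte and 10058-F4 library. Hist1h1a was the larger in every alpha-amanitin and alpha-amanitin control library and in 6 of 7 controls of 10058-F4, all but replicate 2. The share of H1foo with coding length in place of exon length was 52.9%, 26%, 18.3%, 19.5% and 63.2% in the same order, and that of Hist1h1a 35.9%, 60.3%, 66.8%, 65.5% and 27.8%. Of the other members, H1f0 gained most percentage points from that scaling: its median share was 5.12% by coding length and 1.89% by exon length in 10058-F4 embryos, and 8.27% and 3.04% in controls of alpha-amanitin. Hist1h1d held 1.44% and 0.169% in 10058-F4 embryos. Without H1foo, the CPM of the other 7 members summed to 988 ± 90.1 in 10058-F4 embryos, 927 ± 181 in their controls, 920 ± 152 in alpha-amanitin embryos, 1014 ± 84.0 in theirs and 490 ± 48.5 in oocytes (SD).

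**Figure D4:**
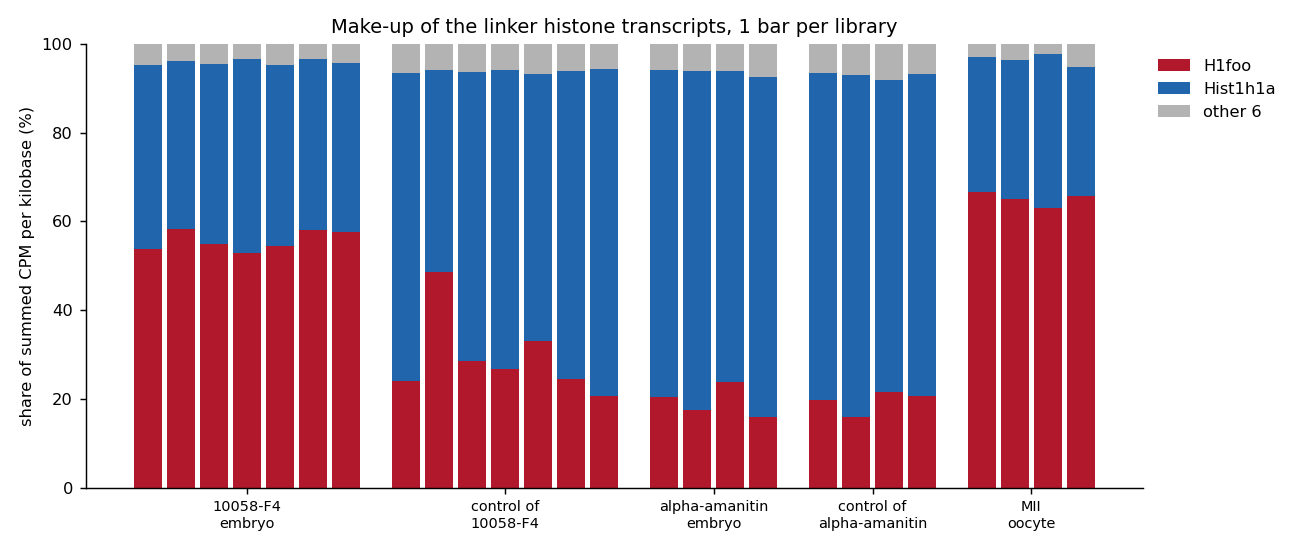
Share of H1foo (red), Hist1h1a (blue) and the other 6 members (grey) in the summed CPM per kilobase of exon, 1 bar per library, in percent. H1foo exceeds Hist1h1a in all oocyte and 10058-F4 libraries and in 1 control of 10058-F4, with a group median of 65.5% in oocytes and 54.9% in 10058-F4 embryos.

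The transcripts whose pattern was most like that of H1foo were ranked by the lower of 2 Pearson correlations of log2(CPM + 1), one over the 14 libraries of the 10058-F4 series and one over the 12 of the alpha-amanitin series, among 6911 named genes that averaged 10 CPM or more in both. The points share their libraries and fall into the study's groups, so r is a description. Lsm14b, an RNA-binding protein of cytoplasmic mRNA granules, came first with r of 0.986 and 0.981. It averaged 1865 CPM in 10058-F4 embryos, 673 in their controls, 569 in alpha-amanitin embryos, 622 in theirs and 1444 in oocytes. Bub1b, a kinase of the spindle checkpoint, followed with r of 0.959 and 0.958, and averaged 1059, 300, 223, 141 and 1677 CPM in the same order. Tex2 and Npc1, a cholesterol transporter, came next, with lower r of 0.949 and 0.946. Only 4 other members reached 10 CPM in both series and were ranked against; Hist1h1b, Hist1h1c and Hist1h1e did not. No gene came as close to any of these 4: the best lower r was 0.804 for Hist1h1d, with the core histone gene Hist1h2aa, 0.698 for H1fx with Grip1os3, 0.608 for H1f0 with Kmt2d and 0.593 for Hist1h1a with Pou2f2. H1foo and Hist1h1a themselves had r of 0.103 over the 14 libraries and -0.868 over the 12.

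**Figure D5:**
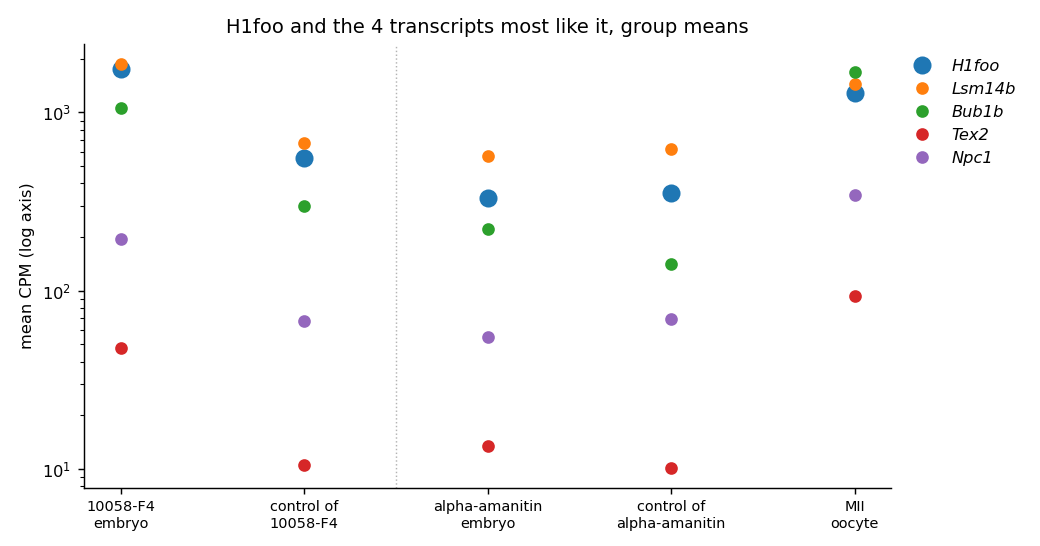
Mean CPM on a log axis in each group for H1foo (large points) and the 4 transcripts most like it; a dotted line parts the series. All 5 are higher in 10058-F4 embryos than in their controls and higher in oocytes than in both embryo groups of the alpha-amanitin series, as the choice of genes by likeness fixes.

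Transcripts of proteins that carry or compete with linker histones were examined next. Of 11 chaperones and nucleosome binders, 3 were called higher in control embryos than in oocytes and 0 lower, beside 1.11% and 1.78% of all genes, with a median log2 fold change of 0.60 over the list and -0.03 over all genes. Nasp, a chaperone of H1 and H3, averaged 879 ± 141 CPM in control embryos and 544 ± 24.0 CPM in oocytes (SD, n = 4 each); the log2 fold change was 0.69 (SE 0.16, adjusted p = 0.0196, edgeR). Npm1, a nucleolar histone chaperone, rose by 0.77 (SE 0.16) and Hmgn1, a nucleosome binder that competes with H1, by 0.90 (SE 0.23). The Npm1 call remained in 16 of 16 alternatives, that of Nasp in 9 and that of Hmgn1 in 8; leaving out any but 1 of the 8 libraries in turn ended the call of Nasp, and likewise that of Hmgn1. Nasp was also higher in alpha-amanitin embryos than in oocytes, at 948 ± 222 and 544 ± 24.0 CPM, a log2 fold change of 0.80 (SE 0.16, adjusted p = 0.00998, edgeR). It was the only 1 of the 11 that edgeR called there, where edgeR called 0.442% of all genes higher and 1.27% lower. DESeq2 and limma voom called 3 of the 11 higher each, beside 389 of 14356 genes for DESeq2 and 141 of 13133 for limma voom. Npm2, the oocyte nucleoplasmin, was not called by edgeR in any comparison; it averaged 877 ± 137 CPM in control embryos and 672 ± 66.0 CPM in oocytes. It was called in 1 of 16 alternatives there and in 3 of 17 for alpha-amanitin embryos over oocytes. Under 10058-F4, Hmgb1, which binds linker DNA, fell by 0.23 (SE 0.07, adjusted p = 0.0428), the 1 call among the 11, beside 6.82% of all genes called higher and 4.08% lower. That call remained in 8 of 21 alternatives. Nasp averaged 943 ± 110 CPM in 10058-F4 embryos and 1097 ± 57.0 CPM in controls, with an adjusted p of 0.0541 and a call in 7 of 21 alternatives. For alpha-amanitin over its control edgeR called 0 of the 11, with 0 at an unadjusted p below 0.05, and DESeq2 and limma voom called 0. Over all genes edgeR had 986 of 13133 at an unadjusted p below 0.05 there, with 0.0228% called higher and 0.00761% lower. DESeq2 called 435 of 14894 genes and limma voom 10 of 13133. For the difference between the agents' effects edgeR called 0, with 1 at an unadjusted p below 0.05, and DESeq2 and limma voom called 0. Over all genes edgeR had 2728 of 15790 at an unadjusted p below 0.05 in that difference, with 0.678% called higher and 0.367% lower. DESeq2 called 1426 of 16905 genes there, and limma voom called 110 higher and 57 lower of 15790.

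Among 12 genes for the synthesis and 3′ processing of histone mRNA, Slbp, the stem-loop binding protein, was higher in control embryos at 1402 ± 33.4 CPM, against 782 ± 55.1 CPM in oocytes (SD, n = 4 each), and the log2 fold change was 0.84 (SE 0.13, adjusted p = 7.1e-04, edgeR). Cpsf3, the endonuclease that cuts the pre-mRNA, fell by 1.34 (SE 0.30), a call that remained in 11 of 16 alternatives, and no other gene of the list was called there, where 1.11% of all genes were called higher and 1.78% lower. Against alpha-amanitin controls, Slbp averaged 1069 ± 169 CPM in alpha-amanitin embryos and 1402 ± 33.4 CPM in controls and was not called (log2 fold change -0.39, SE 0.13, adjusted p = 0.524). Under 10058-F4, 2 of the 12 were called higher and 2 lower, beside 6.82% and 4.08% of all genes, with a median of -0.08 over the list and 0.00 over all genes. Sympk, a scaffold of the cleavage complex, rose by 0.61 (SE 0.12) and Lsm11, a subunit of the U7 snRNP, by 0.65 (SE 0.18). Srrt, a protein of nuclear mRNA cap complexes, fell by 0.55 (SE 0.13); each of these 3 calls remained in 20 of 21 alternatives. Slbp fell by 0.25 (SE 0.08, adjusted p = 0.0480, edgeR), and its call remained in 8 of 21. Cpsf3 was the 1 gene of the list whose change differed between the agents, by -1.62 (SE 0.36). There 0.678% of all genes had a difference called higher and 0.367% lower. Its log2 fold change was 1.17 (SE 0.30) under alpha-amanitin and -0.46 (SE 0.19) under 10058-F4, and neither was called by edgeR. It averaged 77.5 ± 5.78 CPM in alpha-amanitin embryos, 34.3 ± 7.74 CPM in their controls and 86.7 ± 17.8 CPM in oocytes. The same controls entered the fall of Cpsf3 against oocytes. For alpha-amanitin embryos over oocytes edgeR called 0 of the 12, with 1 at an unadjusted p below 0.05, and DESeq2 and limma voom called 1 each. Over all genes edgeR had 1387 of 13133 at an unadjusted p below 0.05 there, with 0.442% called higher and 1.27% lower. DESeq2 called 809 of 14356 genes and limma voom 542 of 13133. For alpha-amanitin over its control edgeR called 0, with 2 at an unadjusted p below 0.05, DESeq2 called 1 and limma voom 0. Over all genes edgeR had 986 of 13133 at an unadjusted p below 0.05 there. DESeq2 called 435 of 14894 genes and limma voom 10 of 13133.

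Among the linker histones and nuclear proteins of the male germ line, Prm2, a protamine named here after its values were seen, stood above the rest. It averaged 9.43 ± 3.31 CPM in 10058-F4 embryos, 5.77 ± 1.86 in their controls, 6.42 ± 11.1 in alpha-amanitin embryos, 10.6 ± 8.79 in theirs and 11.2 ± 5.36 in oocytes (SD, n = 7, 7, 4, 4 and 4). It had counts in every library of the 10058-F4 series and of oocytes, and none in 2 alpha-amanitin libraries and 1 of their controls. Hils1, Tnp1 and Tnp2 had 0 counts in every group, and the 7 genes summed to at most 24.3 CPM in any library. Of the 7, 1 or 2 passed the filter on low counts in each comparison and 0 were called by edgeR, DESeq2 or limma voom. By edgeR 1 had an unadjusted p below 0.05 under 10058-F4, beside 2862 of 13003 genes, and 0 did in the other comparisons. There the counts over all genes were 986 of 13133 for alpha-amanitin over its control and 2728 of 15790 for the difference between agents. Over oocytes they were 1846 for control embryos and 1387 for alpha-amanitin embryos, of 13133 genes.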

How the data were processed

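RNA was measured in 26 libraries. Per the labels' protocols, lysates went without purification into a stranded total RNA kit for very low input. Per the submitters' processing notes, cutadapt 1.7.1, STAR 2.5.0a and GRCm38 were used. The deposited table holds raw, whole-number counts for each gene; no source used here names the counting program, strand setting or annotation release. Rows without a GENCODE vM21 symbol held 0.00563% of counts.

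Counts were fitted in R 4.3.3 with edgeR 4.0.16 (quasi-likelihood, TMM, filterByExpr with a minimum count of 10 and a minimum total of 15), with 14 libraries for 10058-F4, 12 for the alpha-amanitin series and 22 for the difference of effects. DESeq2 1.42.0 and limma 3.58.1 were alternatives. Biological coefficients of variation were 0.555 (10058-F4 series) and 1.12 (alpha-amanitin series). The fits were tested on simulated data. Replicates differed by far more than sampling noise (chi-square per degree of freedom of 32.8 or more). A count of 0 was read as at most 3 counts over the group's summed totals; limits of this kind cover counting error only. Named were all members, up to 3 called genes per list and comparison by smallest p, always Nasp, Npm2 and Slbp, and the genes most like each member (4 for H1foo, where the rule set more; the rest are not reported here). The members and lists were chosen with earlier results of these data known. Sequences are from RefSeq promoters and the GENCODE transcripts. Libraries of other compounds named in the protocols were not analysed here.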

Additional observations from a re-analysis of the deposited data

Results flagged for a closer look

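The change of H1foo differed between the agents by 1.77 on the log2 scale (SE 0.27, edgeR adjusted p = 4.0e-04), higher in all 7 10058-F4 libraries than in any of their controls and overlapping between alpha-amanitin embryos and theirs. Single libraries stood away from the rest of their group in 4 of 38 combinations of a member and a group that were examined by the gap to the nearest library. The rate by chance is about 1 in 20 only for roughly normal values. Hist1h1b, at 0 in 5 of 7 10058-F4 libraries, does not have such values, so the 4 cannot be weighed against that rate. Hist1h1a was 421 CPM in oocyte replicate 2, with the other oocytes at 364 to 371 CPM. Hist1h1e was 40.4 CPM in 10058-F4 replicate 8, with the others at 2.49 to 10.3 CPM. Hist1h1b was 14.7 CPM in control replicate 4 of the alpha-amanitin series, with the others at 0 to 0.687 CPM, and 0.959 CPM in 10058-F4 replicate 5, with the others at 0 to 0.121 CPM.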

How the results depend on the processing

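The calls of H1foo under 10058-F4 (log2 fold change 1.57 to 1.84 over 21 alternatives), in control and alpha-amanitin embryos over oocytes (-1.94 to -1.78 over 16, and -2.21 to -1.82 over 17) and in the difference between agents (1.60 to 1.97 over 28), and those of Hist1h1a over oocytes (1.04 to 1.14 and 0.891 to 1.07), were kept in every alternative run, the fits without alpha-amanitin libraries 1 and 3 included. Those fits, raw library totals and coding length were chosen after seeing the data. H1f0 in control embryos over oocytes was called in 4 of 16 alternatives. Depth and spread limit the scarce members. limma voom moved the median of all genes to -0.31 and -0.23 in the comparisons of control and alpha-amanitin embryos with oocytes.

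Counts of called genes moved more. For 10058-F4 over its control the 1418 calls became 381 in a fit of all 5 groups. For alpha-amanitin over its control the 4 calls became 435 with DESeq2, 10 with limma voom, 89 without the filter, 103 in a fit of all 5 groups and 0 with the 2 groups alone, and 0 to 6 without 1 library. For control embryos over oocytes the 380 calls became 1225 with DESeq2, 940 with limma voom, 1409 in a fit of all 5 groups, 764 with the 2 groups alone and 212 to 340 without 1 library. For alpha-amanitin embryos over oocytes the 225 calls became 809 with DESeq2, 542 with limma voom, 472 without the filter, 859 in a fit of all 5 groups and 122 to 330 without 1 library. For the difference between agents the 165 calls became 1426 with DESeq2, 443 without the filter and 92 to 272 without 1 library. The causes were not tested.

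Replicate numbers shared between groups did not pair the libraries, since deviations of same-numbered libraries correlated at -0.027 to 0.042. With the number as a replicate block, the calls for alpha-amanitin over its control became 0 and those for the difference between agents 44, and all 4 calls of H1foo remained, with adjusted p of at most 0.00564.

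Members that were not called changed sign in places. Without 1 library the log2 fold change ranged from -0.307 to 0.0455 for H1foo, -0.884 to 0.129 for Hist1h1c, -0.872 to 0.1 for Hist1h1d, -1.25 to 0.57 for Hist1h1e, -0.0706 to 0.18 for Nasp and -0.0515 to 0.228 for Npm2 under alpha-amanitin. It ranged from -2.9e-05 to 0.142 for Hist1h1a and -0.56 to 0.461 for Hist1h1e under 10058-F4, and from -0.301 to 1.11 for Hist1h1c in control embryos over oocytes. In alpha-amanitin embryos over oocytes it ranged from -0.736 to 0.788 for Hist1h1c and -0.501 to 0.483 for Hist1h1d, and in the difference between agents from -0.27 to 0.0506 for H1fx, -0.35 to 1.44 for Hist1h1e and -0.0735 to 0.191 for Npm2. Hist1h1e under 10058-F4 was -0.14 with limma voom and -0.111 with the replicate block, and Hist1h1c under alpha-amanitin 0.104 with the block. In alpha-amanitin embryos over oocytes, limma voom gave 1.51 for Hist1h1c, -1.09 for Hist1h1d and -1.14 for Hist1h1e, and the block 0.571 for Hist1h1c and -0.41 for Hist1h1d. The difference for Npm2 was -0.0529 with raw library totals. The shares of H1foo without length scaling were 63.0% in 10058-F4 embryos, 34.7% in their controls, 25.3% in alpha-amanitin embryos, 26.9% in theirs and 72.4% in oocytes.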
